A study of Mus musculus with 12 samples.

Results

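The expression of 7 caveolae genes, Cav1, Cav2, Cavin1, Cavin2, Cavin3, Ehd2 and Pacsin2, was analysed in epididymal white adipose tissue (eWAT). They were chosen by name as the coat and neck proteins of caveolae, and are 7 of the 22870 genes measured. All 7 passed the filter on low values and were among the 12769 genes tested. The tissue came from male C57BL/6J mice that were housed individually, put on their diets at 5 weeks of age and killed at 21 weeks of age after 16 weeks. The normal diet group (ND) received a normal diet, the HFD group a high-fat diet, the CLE group the same high-fat diet with 1.5% chrysanthemum leaf ethanol extract, and the LU group the high-fat diet with 0.003% luteolin, a flavonoid of the plant. CLE and LU mice thus shared the high-fat diet with the HFD mice, and the extract and the compound were given at different doses, by different weights of diet. There were 3 mice per group and 1 library per mouse, 12 libraries in all. Whole tissue was extracted, so each value is a sum over adipocytes, blood vessels, immune cells and fibroblasts.

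Caveolae are small flask-shaped pits of the plasma membrane, and adipocytes and endothelial cells are among the cells richest in them. Caveolins are hairpin proteins that insert into the inner leaflet. Cav1 is the one that caveolae of these cells require, and Cav2 assembles with it. Cavins form a peripheral coat over the caveolins, in which Cavin1 is needed for the coat to form while Cavin2 and Cavin3 join it through Cavin1. Ehd2 is an ATPase that forms a ring at the neck and holds the pit at the surface. Pacsin2, an F-BAR protein, bends membrane and takes part in forming the neck. In adipocytes, caveolae take part in the buffering of membrane tension, in fatty acid handling and in insulin receptor signalling, and mice or people without Cav1 or Cavin1 have a lack of body fat.

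The genes lie on 5 chromosomes of the mouse genome (GRCm38 coordinates from the GENCODE annotation). Cav2 (chromosome 6, 17281185 to 17289115, plus strand) and Cav1 (chromosome 6, 17306335 to 17341452, plus strand) are neighbours. Cavin1 lies on chromosome 11 (100956733 to 100970887, minus strand), Cavin2 on chromosome 1 (51289126 to 51302960, plus strand) and Pacsin2 on chromosome 15 (83375607 to 83464606, minus strand). Cavin3 (105480083 to 105482300, minus strand) and Ehd2 (15946958 to 15967567, minus strand) both lie on chromosome 7. All are protein-coding.

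The sequences before the start sites are shown for Cav1, whose level differed least between HFD and ND, and for Cavin2, Ehd2 and Pacsin2, the genes whose level differed between the diets. They are RefSeq promoters (GRCm38.p6), written 5′ to 3′ on the strand of the gene and limited to the bases upstream of the start. Cav1 has 2 listed promoters and Pacsin2 has 3, of which the one nearest to the outer end of the GENCODE gene was taken. Capitals mark matches, on either strand, to the GC box (GGGCGG or CCGCCC), the CCAAT box (CCAAT or ATTGG), the TATA box (TATAAA or TTTATA) and the E-box (CACGTG, which reads the same on both strands). No match overlapped a match of another of these motifs.
Cav1, chr6:17306085-17306334, plus strand: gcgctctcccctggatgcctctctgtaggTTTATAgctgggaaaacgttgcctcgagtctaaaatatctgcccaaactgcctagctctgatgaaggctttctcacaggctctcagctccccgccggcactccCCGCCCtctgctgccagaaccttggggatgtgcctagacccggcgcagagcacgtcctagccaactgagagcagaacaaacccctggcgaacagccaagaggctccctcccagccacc
Cavin2, chr1:51288876-51289125, plus strand: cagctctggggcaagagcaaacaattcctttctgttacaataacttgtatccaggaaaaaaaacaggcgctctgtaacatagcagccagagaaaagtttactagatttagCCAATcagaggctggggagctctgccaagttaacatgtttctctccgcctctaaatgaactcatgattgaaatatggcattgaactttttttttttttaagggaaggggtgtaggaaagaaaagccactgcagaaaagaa
Ehd2, chr7:15967568-15967785, minus strand: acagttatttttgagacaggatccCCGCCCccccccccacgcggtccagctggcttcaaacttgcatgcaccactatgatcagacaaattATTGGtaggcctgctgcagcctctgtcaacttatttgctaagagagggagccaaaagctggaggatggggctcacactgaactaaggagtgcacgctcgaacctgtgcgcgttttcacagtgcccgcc
Pacsin2, chr15:83464607-83464856, minus strand: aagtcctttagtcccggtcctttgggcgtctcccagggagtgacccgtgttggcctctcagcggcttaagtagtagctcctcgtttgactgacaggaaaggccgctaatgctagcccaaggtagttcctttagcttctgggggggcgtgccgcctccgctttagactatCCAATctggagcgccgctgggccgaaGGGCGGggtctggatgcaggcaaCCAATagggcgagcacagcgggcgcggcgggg
The upstream stretch is 250 bases long, except for Ehd2, where 32 bases that GENCODE places in the gene were left out and 218 remain. Cav1 had 1 GC box and 1 TATA box, Cavin2 had 1 CCAAT box, Ehd2 had 1 of each of the GC and CCAAT boxes, and Pacsin2 had 1 GC box and 2 CCAAT boxes. The TATA box match of Cav1 lies near the upstream end of its window, away from the start. Of all 32851 promoters, 32.7% held a GC box, 33.8% a CCAAT box, 12.4% a TATA box and 6.0% an E-box within 250 bases. Within 218 bases these shares were 28.2%, 30.8%, 9.9% and 4.9%. The Cavin2 stretch had the lowest GC content of the 4, 40.4%, against 54.6% for Ehd2, 59.6% for Cav1, 62.0% for Pacsin2 and a median of 52.4% over all promoters. A match is a description of the letters in the window and does not show that a factor binds there. Of the 7 genes, 6 are in the promoter table. Cavin3 is not, and the listed start of Cavin1 falls inside the GENCODE gene, so its upstream bases are not printed.

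Expression was deposited as FPKM, fragments per kilobase of transcript scaled to library size, so levels are given per length and can be compared between genes. No read counts were given, so the sequencing depth is unknown. The 12 libraries entered a joint limma fit of log2(FPKM + 1), and adjusted p-values are Benjamini-Hochberg values over all 12769 genes. A gene is said to differ at an adjusted p under 0.05. A gene is called only where it also changed by more than 1.5-fold. Whether the ranges of 2 groups overlap describes the 3 mice of each and is not a test. The share of all genes tested whose groups do not overlap was not counted. Fold changes are on the log2(FPKM + 1) scale, with their standard error (SE). Between mice of the same group, Pearson's r across genes ranged from 0.978 to 0.991. A letter R of unstated meaning stands in the labels of 4 libraries, those of CLE mouse 4, LU mouse 2 and ND mice 3 and 4. The headers of the same 4 libraries also share a number of unstated meaning that the other libraries lack. No HFD library carries the letter R, so the HFD cannot be compared with another group among libraries that do. With a term for the letter R in the limma fit, 0 of the 12769 genes differed by it at an adjusted p under 0.05. By the unadjusted p, 523 did. This term rests on ND, CLE and LU alone. ND mouse 4 has its values under a header with another abbreviation, which was mapped by its number and letter R. The header of the authors' comparison of ND with HFD also lists it with the other ND columns.

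Cav1 was by far the most abundant of the 7 in every group, with a mean of 1399.8 FPKM in ND, 1367 in HFD, 1515 in CLE and 1565 in LU. Cavin1 followed with group means of 496 to 628 FPKM and Ehd2 with 322 to 435 FPKM. Cav2 had group means of 302 to 361 FPKM and Cavin2 of 247 to 356 FPKM. Cavin3 lay at 86.5 to 103 FPKM and Pacsin2 at 25.1 to 32.7 FPKM. The order Cav1, Cavin1, Ehd2, Cav2, Cavin2, Cavin3, Pacsin2 was the same in all 4 groups. The ranges of Ehd2 and Cav2 overlapped in ND, HFD and CLE, those of Cav2 and Cavin2 overlapped in ND and CLE, and no other neighbours in this order overlapped within a group. Summed over the 7 genes, the libraries held 2678 to 3441 FPKM in ND, 2717 to 3014 in HFD, 3178 to 3567 in CLE and 3357 to 3417 in LU.

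**Figure D1:**
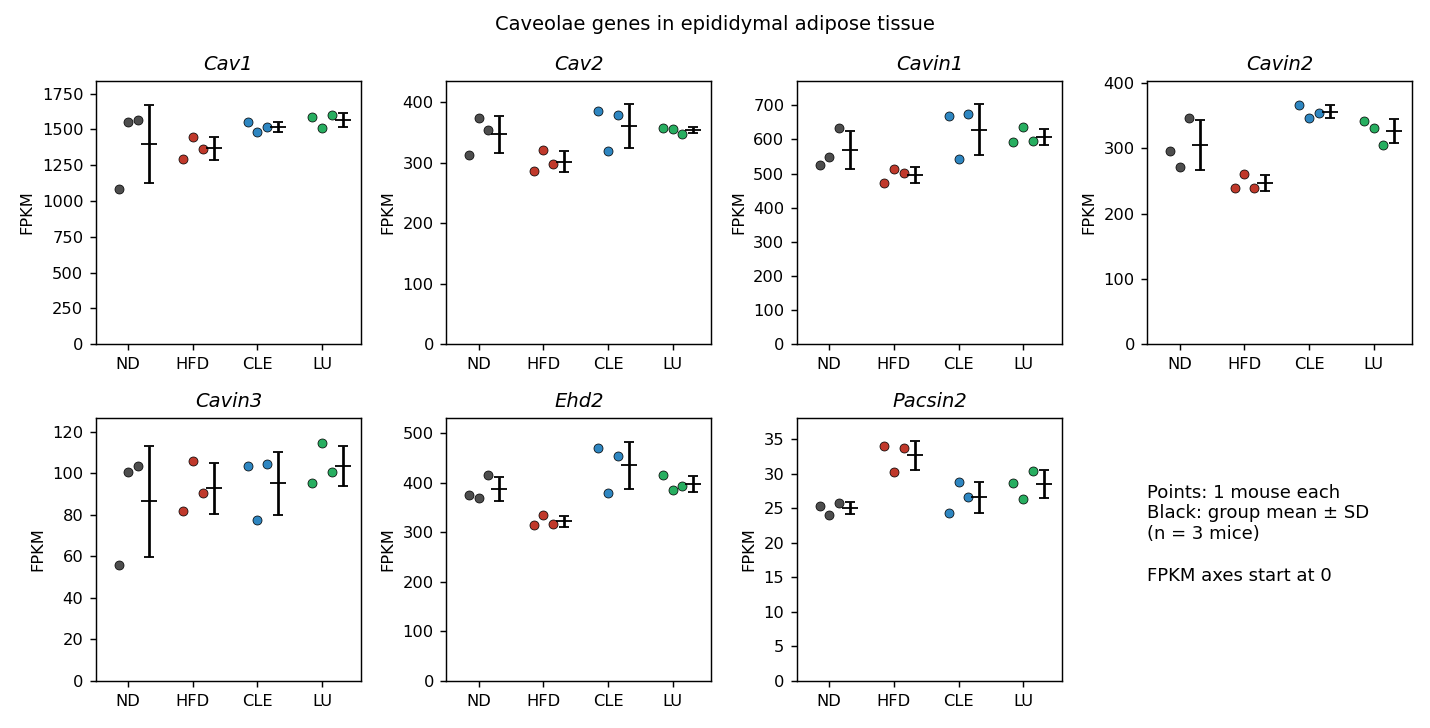
FPKM of the 7 caveolae genes (y axes, starting at 0) in each mouse of the ND, HFD, CLE and LU groups (x axes), with the group mean ± SD in black (n = 3). The 3 HFD mice lie below all ND, CLE and LU mice for Cavin1, Cavin2 and Ehd2 and above all ND and CLE mice for Pacsin2, while for Cav1 and Cavin3 ND mouse 2 lies lowest of all 12. The share of all genes tested whose groups lie apart was not counted.

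The first comparison asked how the high-fat diet changed the coat. None of the 7 genes was called between HFD and ND, where 25.6% of all genes tested were called in either direction. By the adjusted p alone, 2 of the 7 genes fell, Cavin2 and Ehd2, and 1 rose, Pacsin2. By the same rule 24.8% of all genes tested were lower and 25.6% higher, so the 7 genes differed no more often than genes at large. The median log2 fold change over the 7 was -0.20, against -0.019 over all genes tested.

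Cav1, the main caveolin, had 1085, 1551 and 1563 FPKM in ND mice 2, 3 and 4, and 1291, 1447 and 1364 FPKM in HFD mice 12, 15 and 18. ND mouse 2 was below every HFD mouse and the other ND mice were above every HFD mouse, so the groups overlapped. The log2 fold change was -0.02 (SE 0.12, 95% interval -0.29 to 0.26, adjusted p = 0.93 by limma). Without ND mouse 2 it was -0.19, without ND mouse 3 0.07, without ND mouse 4 0.07, without HFD mouse 12 0.03 and without the 4 R libraries 0.33, none of which passed the test. Cav2, its partner, had 313, 373 and 354 FPKM in the ND mice and 287, 320 and 298 FPKM in the HFD mice. The groups overlapped at ND mouse 2 and HFD mouse 15, and the log2 fold change was -0.20 (SE 0.10, adjusted p = 0.11 by limma). Without ND mouse 2 the log2 fold change of Cav2 was -0.27 and its adjusted p 0.044.

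Among the cavins, Cavin1, which the coat requires, had 526, 549.7 and 632 FPKM in the ND mice and 471, 515 and 502 FPKM in the HFD mice. All HFD mice were below all ND mice, but the log2 fold change of -0.20 (SE 0.10) did not pass the test (adjusted p = 0.14 by limma). Cavin2 had 296, 272 and 347 FPKM in the ND mice and 239, 262 and 239.9 FPKM in the HFD mice. The groups did not overlap, and Cavin2 fell with the HFD by 0.30 on the log2 scale (SE 0.10, adjusted p = 0.022 by limma). Its adjusted p was 0.092 without ND mouse 4, 0.071 without HFD mouse 12 and 0.069 without HFD mouse 18. In a fit of HFD and ND alone it was 0.058. Cavin3, the third coat protein, had 55.7, 100.5 and 103 FPKM in the ND mice and 81.6, 106 and 90.4 FPKM in the HFD mice. ND mouse 2 was the lowest of all 12 mice for Cavin3, and the log2 fold change was 0.14 (SE 0.21, adjusted p = 0.60 by limma) with it and -0.14 without it.

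At the neck, Ehd2 had 376, 370.0 and 415 FPKM in the ND mice and 314, 334 and 317 FPKM in the HFD mice. The groups did not overlap, and Ehd2 fell by 0.26 on the log2 scale (SE 0.09, adjusted p = 0.033 by limma). With quantile normalization its adjusted p was 0.085, and with the transcript of the highest mean it was 0.089. The adjusted p of Ehd2 was 0.12 without ND mouse 4, 0.094 without HFD mouse 12, 0.0502 without HFD mouse 15 and 0.086 without HFD mouse 18, and it was 0.0998 when only the unaltered Ensembl transcripts were summed. Pacsin2 went the other way, with 25.4, 24.1 and 25.7 FPKM in the ND mice and 34.1, 30.3 and 33.7 FPKM in the HFD mice. All HFD mice were above all ND mice, and Pacsin2 rose by 0.37 on the log2 scale (SE 0.09, adjusted p = 0.0050 by limma). Its test passed in each of the 12 fits that left out 1 library. The deposited rows of Pacsin2 stand under the name of its neighbour Arfgap3, with which the assembly merged it, and were taken by their Ensembl transcripts. A covariate for the letter R gave an adjusted p of 0.076 for Cavin2 and 0.056 for Ehd2. Without the 4 R libraries, which leaves ND mouse 2 alone for its group with a spread assumed like that of the other groups, it was 0.11 for Cavin2, 0.13 for Ehd2 and 0.078 for Pacsin2, and Cavin3 was the only gene of the 7 that differed, with a log2 fold change of 0.72 and an adjusted p of 0.013.

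The second comparison asked what the chrysanthemum extract changed in mice on the high-fat diet. None of the 7 genes was called between CLE and HFD, where 16.5% of all genes tested were called. By the adjusted p alone, 3 of the 7 rose with CLE, Cavin1, Cavin2 and Ehd2, and 15.5% of all genes tested did. Pacsin2 was the 1 gene that fell, and 18.1% of all genes tested did. The median log2 fold change over the 7 genes was 0.25, against 0.005 over all genes tested. This comparison and that of LU use the same 3 HFD mice as the comparison of HFD with ND, so opposite signs in them are not separate evidence.

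Cavin2 differed most, with 367, 347 and 354 FPKM in CLE mice 2, 4 and 11, all above the highest HFD mouse at 262 FPKM. Its log2 fold change was 0.53 (SE 0.10, 95% interval 0.32 to 0.74, adjusted p = 0.0016 by limma), and it passed the test in each of the 12 fits that left out 1 library and in all 13 other alternatives. Ehd2 had 470.2, 380.1 and 454 FPKM in the CLE mice, also above all HFD mice, and rose by 0.43 on the log2 scale (SE 0.09, adjusted p = 0.0046 by limma). Ehd2 passed in all 12 fits without 1 library, but its adjusted p was 0.065 when only the unaltered Ensembl transcripts were summed. It was 0.052 with the transcript of the highest mean. Cavin1 had 667.5, 542 and 674 FPKM in the CLE mice and rose by 0.33 (SE 0.10, adjusted p = 0.027 by limma). With quantile normalization its adjusted p was 0.079. The groups did not overlap, and the adjusted p of Cavin1 was 0.094 without HFD mouse 12, 0.062 without HFD mouse 18, 0.093 without CLE mouse 2 and 0.084 without CLE mouse 11. CLE mouse 4, the CLE library with the letter R, was the lowest CLE mouse for all of the 7 genes but Pacsin2, for which it was the highest.

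Cav2 had 385, 319.6 and 379 FPKM in the CLE mice, and CLE mouse 4 lay within the HFD range. Its log2 fold change was 0.25 (SE 0.10, adjusted p = 0.061 by limma), with an adjusted p of 0.026 without CLE mouse 4, of 0.044 without ND mouse 2 and of 0.031 without the 4 R libraries. Cav1 had 1549.9, 1482 and 1514 FPKM in the CLE mice, all above the highest HFD mouse at 1447 FPKM, with a log2 fold change of 0.15 (SE 0.12, 95% interval -0.12 to 0.42, adjusted p = 0.39 by limma). Cavin3 had 104, 77.6 and 104 FPKM in the CLE mice, which overlapped the HFD mice, and a log2 fold change of 0.03 (adjusted p = 0.92 by limma). Pacsin2 had 24.4, 28.9 and 26.7 FPKM in the CLE mice, all below the lowest HFD mouse at 30.3 FPKM. It fell by 0.29 on the log2 scale (SE 0.09, adjusted p = 0.028 by limma). Its adjusted p was 0.094 with the transcript of the highest mean and 0.052 in a fit of CLE and HFD alone. The adjusted p of Pacsin2 was 0.095 without HFD mouse 12, 0.089 without HFD mouse 18, 0.10 without CLE mouse 2, 0.052 without CLE mouse 11 and 0.054 without the 4 R libraries.

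The third comparison asked the same of luteolin. None of the 7 genes was called between LU and HFD, where 12.5% of all genes tested were called. By the adjusted p alone, 2 of the 7 genes rose, Cavin2 and Ehd2, and 13.2% of all genes tested did. None of the 7 fell, and 13.6% of all genes tested did. The median log2 fold change over the 7 genes was 0.23, against 0.032 over all genes tested.

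Cavin2 had 342, 332 and 306 FPKM in LU mice 2, 3 and 8, above all HFD mice, and rose by 0.40 on the log2 scale (SE 0.10, adjusted p = 0.010 by limma). It passed in all 12 fits without 1 library and in all 13 other alternatives. Ehd2 had 416, 385 and 394 FPKM in the LU mice, again above all HFD mice, and rose by 0.31 (SE 0.09, adjusted p = 0.031 by limma). Leaving out any 1 of the 3 HFD mice (12, 15 and 18) or of the 3 LU mice (2, 3 and 8) took the adjusted p of Ehd2 to between 0.054 and 0.097, and leaving out the 4 R libraries took it to 0.057. By processing, the adjusted p of Ehd2 was 0.056 with scaling by median ratios and 0.077 with quantile normalization. It was 0.13 with the transcript of the highest mean and 0.14 when only the unaltered Ensembl transcripts were summed. Cavin1 had 593, 635 and 595 FPKM in the LU mice, above all HFD mice, and a log2 fold change of 0.29 (SE 0.10, adjusted p = 0.055 by limma). In a fit of LU and HFD alone its adjusted p was 0.027, and with a filter on a mean of at least 5 FPKM it was 0.048. Without ND mouse 4 the adjusted p of Cavin1 was 0.048 and without CLE mouse 4 it was 0.033, and without the 4 R libraries it was 0.047.

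Cav1 had 1584.5, 1509.5 and 1599.8 FPKM in the LU mice, above all HFD mice, with a log2 fold change of 0.20 (SE 0.12, 95% interval -0.08 to 0.47, adjusted p = 0.27 by limma). With quantile normalization it was 0.35 and passed (adjusted p = 0.045 by limma). Cav2 had 358, 356 and 348 FPKM in the LU mice, above all HFD mice, with a log2 fold change of 0.23 (adjusted p = 0.098 by limma). Cavin3 had 95.3, 114 and 101 FPKM and overlapped the HFD mice (log2 fold change 0.16, adjusted p = 0.61 by limma). Pacsin2 had 28.8, 26.4 and 30.4 FPKM in the LU mice. LU mouse 8 was just above the lowest HFD mouse, and the log2 fold change was -0.19 (SE 0.09, adjusted p = 0.13 by limma).

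**Figure D2:**
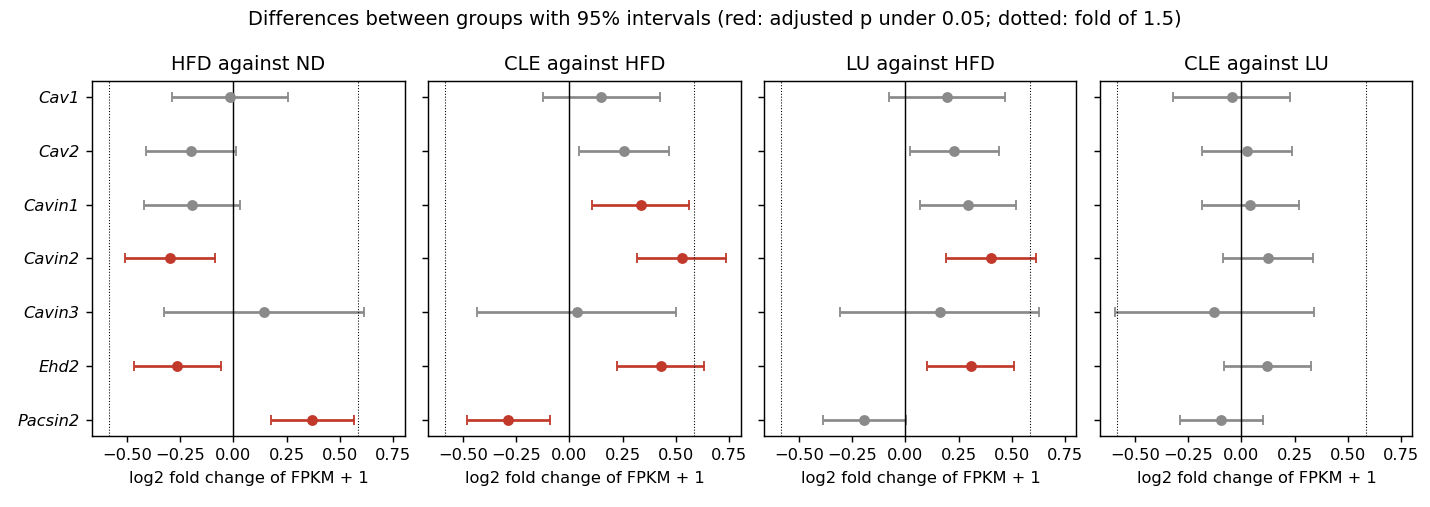
Log2 fold change of FPKM + 1 (x axes) of the 7 genes (y axis) in 4 comparisons, HFD with ND, CLE and LU each with HFD, and CLE with LU (the group named first over the second), as points with 95% intervals from the limma fit. Red marks an adjusted p under 0.05 and the dotted lines a 1.5-fold change, which no point reaches. Cavin2 has the largest rise against HFD in both supplemented groups, 0.53 in CLE and 0.40 in LU.

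CLE and LU were also set against ND and against each other. None of the 7 genes differed between CLE and ND, where 5.18% of all genes tested differed and 2.92% were called. Cavin2 alone had an unadjusted p under 0.05 there, with all 3 CLE mice just above the highest ND mouse at 347 FPKM, a log2 fold change of 0.23 (SE 0.10) and an adjusted p of 0.18 by limma. None of the 7 differed between LU and ND, also by the unadjusted p, where 12.8% of all genes tested differed and 6.59% were called. Without the 4 R libraries Cavin3 was called between LU and ND (log2 fold change 0.93, adjusted p = 0.032 by limma), with ND mouse 2 as the only ND mouse left. Between CLE and LU, which differ in agent and in dose, none of the 7 genes differed and 0 had an unadjusted p under 0.05. Of all genes tested, 0.00783% differed and 0.00783% were called, which is 1 gene. The log2 fold changes of CLE against LU ranged from -0.13 for Cavin3 to 0.13 for Cavin2. The 95% interval was -0.32 to 0.23 for Cav1, -0.08 to 0.34 for Cavin2, -0.08 to 0.33 for Ehd2 and -0.60 to 0.34 for Cavin3, and differences of this size between the supplements lie within these intervals.

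By group means, Cav2, Cavin1, Cavin2 and Ehd2 shared the order CLE, LU, ND, HFD from high to low. For Cavin1 and Ehd2 the ranges of CLE, LU and ND overlapped from neighbour to neighbour and HFD lay apart below ND. For Cavin2, CLE lay apart above LU and HFD apart below ND, while LU and ND overlapped. For Cav2 all neighbours overlapped. Cav1 and Cavin3 had LU highest, and all their neighbours overlapped. Pacsin2 had the order HFD, LU, CLE, ND, in which all neighbours overlapped although HFD and ND did not.

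The ratios between members show the same levels within each mouse and are given without a test. Cav2 stood at 0.252 ± 0.032 of Cav1 in ND, 0.221 ± 0.0018 in HFD, 0.238 ± 0.0195 in CLE and 0.226 ± 0.0091 in LU (SD, n = 3). The ratio of Cavin1 to Cav1 was 0.414 ± 0.066 in ND, 0.363 ± 0.0065 in HFD, 0.414 ± 0.042 in CLE and 0.389 ± 0.028 in LU. That of Cavin2 to Cavin1 was 0.536 ± 0.037 in ND, 0.498 ± 0.018 in HFD, 0.571 ± 0.061 in CLE and 0.538 ± 0.034 in LU. In HFD these ratios of Cav2 and Cavin1 to Cav1 varied least between mice, and their wide range in ND came with the low Cav1 of ND mouse 2, which had the highest ratio in each case. Ehd2 to Cav1 ran from 0.239 to 0.346 in ND and from 0.231 to 0.243 in HFD, which overlapped, and from 0.256 to 0.303 in CLE and from 0.246 to 0.263 in LU, both above HFD. Pacsin2 to Cav1 ran from 0.0155 to 0.0234 in ND, from 0.0210 to 0.0264 in HFD, from 0.0157 to 0.0195 in CLE and from 0.0175 to 0.0190 in LU.

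Of the relatives of the neck proteins, Ehd4 and Pacsin3 were called in all 3 comparisons. Ehd4, a paralogue of Ehd2 that acts in endosomal traffic, had 20.1 to 21.6 FPKM in ND, 66.9 to 81.2 in HFD, 24.8 to 38.4 in CLE and 31.8 to 38.7 in LU. The HFD mice lay above all others, and Ehd4 was called higher in HFD than in ND (log2 fold change 1.82, SE 0.14) and lower in CLE and LU than in HFD (-1.26 and -1.07). Ehd3 had 6.94 to 12.6 FPKM in ND and 15.9 to 23.4 in HFD, and was called higher in HFD (0.92, adjusted p = 0.0021 by limma). It had 19.0 to 23.2 FPKM in CLE and 16.9 to 22.5 in LU, which overlapped HFD, and did not pass the test against HFD (adjusted p = 0.55 and 0.94 by limma). Ehd1 had group means of 93.0 in ND, 77.6 in HFD, 104 in CLE and 85.5 in LU. It rose with CLE alone of the 3 comparisons (0.41, adjusted p = 0.020 by limma). Its adjusted p was up to 0.083 without HFD mouse 12, CLE mouse 2 or CLE mouse 4. The rise of Ehd1 with CLE also did not pass without the 4 R libraries. With the transcript of the highest mean Ehd1 was also lower in HFD than in ND (adjusted p = 0.022 by limma). The difference of Ehd1 between CLE and LU itself did not pass (0.27, adjusted p = 0.89 by limma).

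Pacsin3, the member of the Pacsin family that is enriched in muscle, moved opposite to Pacsin2. It had 19.0 to 26.2 FPKM in ND and 7.98 to 9.98 in HFD, against 17.4 to 20.0 in CLE and 14.5 to 17.2 in LU. All HFD mice were below all other mice, and Pacsin3 was called lower in HFD than in ND (log2 fold change -1.31, SE 0.13) and higher in CLE (1.02) and LU (0.75) than in HFD. In ND the means of Pacsin2 and Pacsin3 were 25.1 and 23.6 FPKM, and in HFD they were 32.7 and 8.85 FPKM. Ehd3, Ehd4 and Pacsin3 kept these directions between HFD and ND in every alternative run. Pacsin1, the neuronal form, and the muscle forms Cav3 and Cavin4 had group means under 0.5 FPKM and were not tested.

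**Figure D3:**
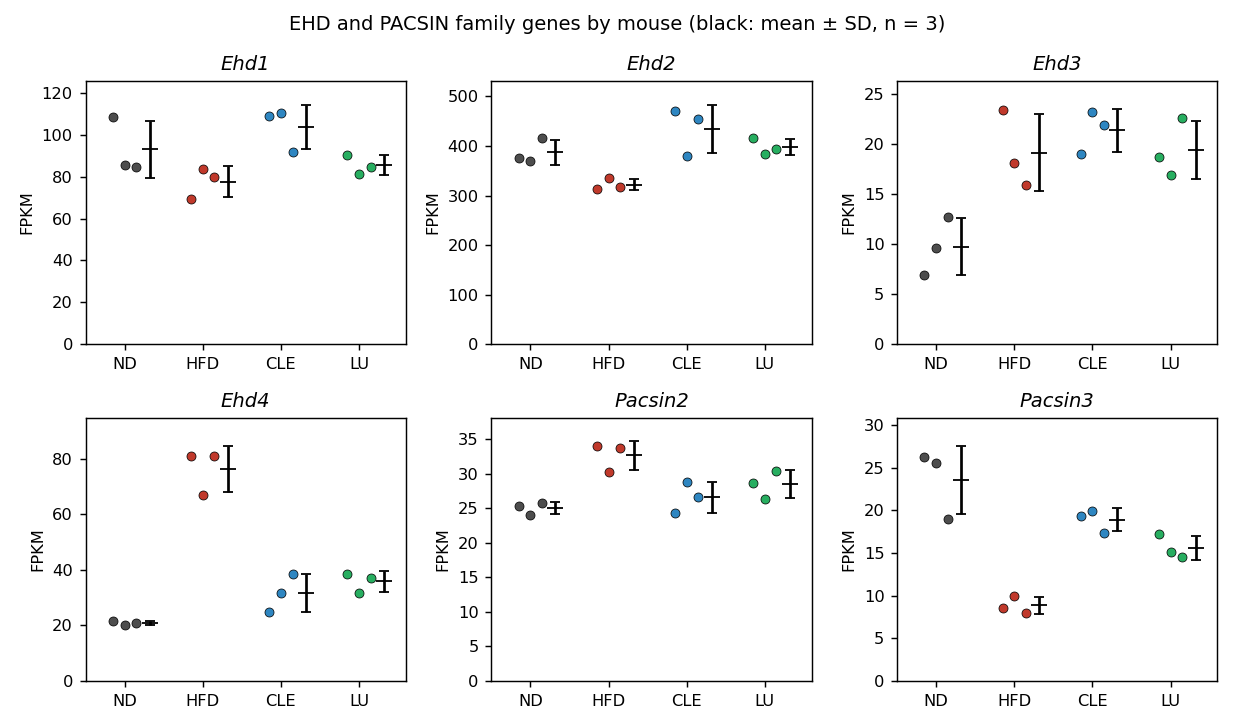
FPKM (y axes, starting at 0) of the EHD genes Ehd1 to Ehd4 and of Pacsin2 and Pacsin3 in each mouse by group (x axes), with the mean ± SD in black (n = 3). Ehd4 and Pacsin3 in HFD lie apart from all other groups, in opposite directions, while Ehd2 and Pacsin2 move far less.

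A list of 16 other caveolae and membrane coat genes holds these relatives with dynamins, flotillins, filamin and sorting nexins, and 13 of them were tested. Between HFD and ND, 6 of the 13 rose and 1 fell, with a median log2 fold change of 0.27. Between CLE and HFD, 2 rose and 4 fell, and between LU and HFD, 1 rose and 4 fell. Over all genes tested, 25.6% rose and 24.8% fell with the HFD, 15.5% and 18.1% with CLE, and 13.2% and 13.6% with LU. Flna, the filamin that ties caveolae to actin, was called higher in HFD (0.63, adjusted p = 0.0028 by limma, and 0.052 without the 4 R libraries) and fell with CLE by 0.48 (adjusted p = 0.020 by limma), whereas its change with LU did not pass (-0.32, adjusted p = 0.11 by limma) except with the transcript of the highest mean (-0.61, adjusted p = 0.019 by limma). Without HFD mouse 12 or 18, or CLE mouse 2 or 4, the adjusted p of Flna for CLE was between 0.05 and 0.081. The drop of Flna with CLE also did not pass with quantile normalization or without the 4 R libraries. Dnm2, the dynamin that cuts membrane necks, had log2 fold changes of 0.03, 0.08 and -0.01 in the 3 comparisons and did not pass, except that with the transcript of the highest mean it rose with CLE by 0.35 (adjusted p = 0.026 by limma). The flotillins, which mark other membrane domains, did not pass the test in any of the 3, with -0.06, 0.21 and 0.26 for Flot1 and -0.11, 0.02 and -0.01 for Flot2. Flot1 passed for LU in 4 of its 25 alternatives, with an adjusted p of 0.039 without ND mouse 2.

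Receptors, enzymes and transporters that are linked with caveolae were taken as a second list, in which all 17 genes were tested. Between HFD and ND, 11 of the 17 fell and 2 rose, with a median log2 fold change of -0.43. Between CLE and HFD, 11 rose and 1 fell (median 0.49), and between LU and HFD, 7 rose and 1 fell (median 0.32). Of all genes tested, 25.6% rose and 24.8% fell with the HFD, 15.5% and 18.1% with CLE, and 13.2% and 13.6% with LU. Insr, the insulin receptor, had a mean of 47.9 FPKM in ND, 22.9 in HFD, 38.8 in CLE and 34.9 in LU. It was called lower in HFD (-1.03, adjusted p = 2.6e-05 by limma) and rose with CLE (0.73) and LU (0.58). With only the unaltered Ensembl transcripts summed, none of these 3 changes of Insr passed (adjusted p = 0.23, 0.34 and 0.74), and with the transcript of the highest mean that for LU did not. Lipe, the hormone-sensitive lipase, was called lower in HFD (-0.62) and rose with CLE (0.59) and LU (0.45). Nos3, the endothelial nitric oxide synthase that Cav1 binds, was called lower in HFD (-0.81, adjusted p = 0.0072 by limma) and higher in CLE than in HFD (0.60, adjusted p = 0.044 by limma). Its call for CLE held only without ND mouse 2 or ND mouse 3 among the 12 fits without 1 library, with adjusted p up to 0.16. The rise of Nos3 with CLE also did not pass with a pseudocount of 0.1 or with no filter. Nor did it pass with the transcript of the highest mean or with only the unaltered Ensembl transcripts summed. Its change with LU did not pass (0.46, adjusted p = 0.13 by limma).

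Cd36, the fatty acid transporter, had means of 1998 FPKM in ND, 2121 in HFD, 2194 in CLE and 2177 in LU. It did not pass the test in any of the 3 comparisons (log2 fold changes 0.09, 0.05 and 0.04), but with only the unaltered Ensembl transcripts summed it rose with CLE by 0.24 (adjusted p = 0.043 by limma). Slc2a4, the insulin-responsive glucose transporter, had -0.30, 0.22 and 0.19 and did not pass either, but without ND mouse 2 it was lower in HFD than in ND (-0.43, adjusted p = 0.030 by limma).

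Markers of the cells that make up the tissue moved with the same groups. They are counted by the adjusted p alone. By this rule, 25.6% of all genes tested rose and 24.8% fell with the HFD. The shares were 15.5% and 18.1% with CLE, and 13.2% and 13.6% with LU. The adipose label was checked first, and the 12 adipocyte markers summed to 19787 FPKM or more in every library, while 8 genes of the epididymis and testis summed to 5.46 FPKM or less. Of the 12 adipocyte markers, 10 fell between ND and HFD (median -0.84), 10 rose between HFD and CLE (0.66) and 10 rose between HFD and LU (0.51). Their sum was 38198 to 40061 FPKM in ND, 19787 to 22250 in HFD, 29843 to 34004 in CLE and 28369 to 34346 in LU. Adipoq, the adipokine adiponectin, changed by -0.84, 0.70 and 0.62 in the 3 comparisons, Plin1, which coats lipid droplets, by -0.83, 0.63 and 0.49, and Fabp4, a fatty acid carrier, by -0.85, 0.59 and 0.66, all with an adjusted p under 0.05. For Plin1 with LU the adjusted p was up to 0.060 without HFD mouse 12, HFD mouse 18 or LU mouse 3, or with the transcript of the highest mean. Quantile normalization sets Fabp4 to 0 change in all 3, as the most abundant gene of each library.

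Of the 12 endothelial markers, 7 fell with the HFD (median -0.55), and 8 rose with each of CLE (0.62) and LU (0.69). Their sum was 537 to 838 FPKM in ND, 360 to 563 in HFD, 605 to 891 in CLE and 678 to 788 in LU. Kdr, the main VEGF receptor, had a log2 fold change of -0.56 with the HFD (adjusted p = 0.088 by limma) and rose with CLE by 1.07 and with LU by 0.90. Its drop with the HFD passed without ND mouse 3 or HFD mouse 18 (lowest adjusted p 0.015), and its rise with LU did not pass without HFD mouse 12 or 15, LU mouse 2 or 8, the filter or the 4 R libraries (adjusted p up to 0.095). Pecam1 and Cdh5, which join endothelial cells, had -0.32 and -0.38 with the HFD, 0.52 and 0.61 with CLE, and 0.60 and 0.69 with LU, of which only the last passed (adjusted p = 0.049 by limma), and Cdh5 lost it in 7 of the 12 fits without 1 library. Pecam1 passed in 3 of the 12 such fits for CLE and in 2 for LU, lowest without HFD mouse 18 (adjusted p = 0.038 and 0.032 by limma). Of 7 smooth muscle and pericyte markers tested, 3 fell and 1 rose with the HFD, where 24.8% of all genes tested fell and 25.6% rose. Acta2, smooth muscle actin, rose with CLE (0.88) and LU (0.96) after a difference of -0.37 with the HFD that did not pass, with an adjusted p of up to 0.065 for CLE (without HFD mouse 18 or CLE mouse 4) and 0.058 for LU (without HFD mouse 18 or LU mouse 3). Myh11, smooth muscle myosin, had -0.80, 0.36 and 0.36, of which the first lay at the threshold (adjusted p = 0.050 by limma) and did not pass in most alternatives.

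All 12 macrophage markers rose with the HFD (median 2.52) and fell with CLE (-1.82) and LU (-1.45). Their sum was 424 to 629 FPKM in ND, 3005 to 3566 in HFD, 738 to 1150 in CLE and 1193 to 1371 in LU. Adgre1, the macrophage antigen F4/80, changed by 3.92, -2.69 and -2.01, Cd68 by 4.08, -2.60 and -2.06, and Csf1r, the receptor of a macrophage growth factor, by 2.39, -1.71 and -1.34. Of 8 markers of adipose progenitors and fibroblasts, 3 rose with the HFD, and 3 fell with each of CLE and LU. The means of Lum, Col1a1 and Col3a1 were 25.3, 42.7 and 204 FPKM in ND and 102, 188 and 773 in HFD. Those of Pdgfra, Dpp4 and Pi16 were 14.8, 6.24 and 20.7 FPKM in ND and 18.9, 9.36 and 26.1 in HFD. Dpt and Dcn had lower means in HFD than in ND, with overlap. Of 6 mesothelial markers, 5 fell with the HFD and 1 rose with each of CLE and LU. These levels were low, with a sum of 9.85 to 59.7 FPKM in ND and 2.32 to 7.29 in HFD. In HFD, 4 of the 6 stayed under 1 FPKM in all mice. Msln and Upk3b overlapped between HFD and ND, and both were highest in ND mouse 4 (9.40 and 25.6 FPKM) and far lower in ND mouse 2 (0.449 and 1.47 FPKM). Over all genes tested, 25.6% rose and 24.8% fell with the HFD. With CLE 15.5% rose and 18.1% fell, and with LU 13.2% rose and 13.6% fell. The part of these cell types in the values of the caveolae genes was not tested. In whole tissue, fewer cells of a type and less RNA per cell cannot be told apart.

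**Figure D4:**
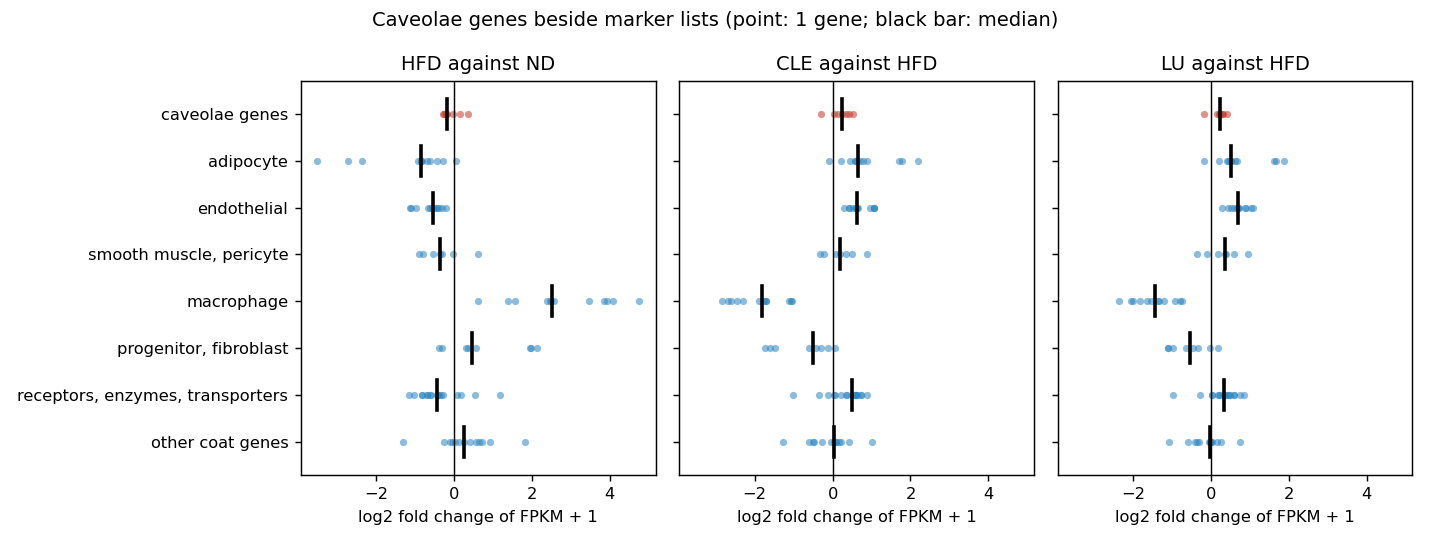
Log2 fold change of FPKM + 1 (x axes) of each gene tested in 8 lists (y axis; red, the 7 caveolae genes; blue, the other lists) for HFD over ND, CLE over HFD and LU over HFD, with the list median as a black bar. The caveolae genes stay within 0.53 of 0 in all 3 comparisons, with medians of -0.20, 0.25 and 0.23, while the adipocyte median is -0.84 and the macrophage median 2.52 between HFD and ND.

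Set against Plin1, a gene of the lipid droplet, in the same mouse, Cav1 gave a higher ratio in the HFD mice than in all other mice. The mean of Cav1 was 1399.8 FPKM in ND and 1367 in HFD, and that of Plin1 was 817 and 459. The higher ratio in HFD than in ND thus came with a lower Plin1 and not with a higher Cav1. The ratio of Cav1 to Plin1 was 1.28, 1.83 and 2.08 in the ND mice and 2.98, 2.84 and 3.14 in the HFD mice, with no overlap. It was 1.84, 2.51 and 2.12 in the CLE mice and 2.47, 2.18 and 2.64 in the LU mice, all below the HFD mice. The ratio of Cav1 to Pecam1, the endothelial gene, overlapped in all groups, with 10.8 to 23.6 in ND, 14.7 to 22.6 in HFD, 12.7 to 19.1 in CLE and 13.3 to 15.5 in LU. No test was made of these ratios.

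The genes whose profiles over the 12 libraries were nearest to that of Cav1, the members left out, were Grtp1, Cd151, Pgghg, Yif1a and Cog4. Nearness was the root mean square difference between log2(FPKM + 1) profiles centred on their own means, which was 0.064 to 0.076 for these 5. Cd151, a tetraspanin of the plasma membrane, had means of 219 FPKM in ND, 200 in HFD, 226 in CLE and 236 in LU. The other 4 had group means of 7.28 to 62.4 FPKM. Nearest to Pacsin2 were Zcchc24, Usp8, Atp9b, Map2k1 and Ttpal, at 0.058 to 0.062. Usp8, a deubiquitinase of endosomes, had means of 28.9 FPKM in ND, 37.4 in HFD, 31.0 in CLE and 31.5 in LU, and Map2k1, the kinase MEK1, had 28.8, 37.5, 29.9 and 31.7 FPKM. Among the members themselves, Cavin1 and Ehd2 were nearest to each other (0.067), followed by Cav2 and Cavin1 (0.074), and Cavin2 and Pacsin2 were farthest apart (0.335).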

How the data were processed

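The mRNA of epididymal adipose tissue was sequenced, 1 library per mouse, and the 3 mice of a group are separate animals. The authors deposited FPKM values for 152210 transcripts, known or assembled from the reads. The submitters' processing notes name CASAVA 1.8.2, Bowtie2 2.2.3, TopHat2 2.0.12 and Cufflinks 2.2.1 without their roles. The genome build is not given in the sources used here. Of the transcripts matched, 87.6% have the same start and end in GENCODE M21 (GRCm38). The table has 15 FPKM columns, of which 3 belong to none of the samples and were left out. The values in columns of the authors' own comparisons, which mark transcripts as called or not, were not used. A header of these columns served only to map ND mouse 4.

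Rows of an Ensembl transcript, unaltered or with altered splicing (Cufflinks code j), were summed per gene. This found 6 members by symbol or older symbol (Ptrf, Sdpr and Prkcdbp for the cavins), and Pacsin2 by its Ensembl transcripts. Genes needed 1 FPKM or more in 3 or more libraries. They were tested with limma 3.58.1 (R 4.3.3) on log2(FPKM + 1), with 1 coefficient per group and no covariate. The thresholds were 0.05 for the Benjamini-Hochberg adjusted p and a 1.5-fold change. The method was tested on simulated data in which 200 of 12769 genes were changed in HFD. Against ND, 193 of the 200 passed at a log2 change of 1, and 150 at 0.6. Unchanged genes that passed numbered 8 and 7. Changes as small as those of the caveolae genes were not simulated. The members, the lists and the tests were chosen with earlier results of these data known. Apart from the members, genes are named from fixed marker and partner lists, or as the 5 nearest to Cav1 and to Pacsin2. Values of 1 listed gene are not reported here, and its list was counted without it. Python 3.11.15 was used for tables and matplotlib 3.10.9 for plots. Alternatives were another pseudocount, filter, scaling, choice of transcripts and fit, the letter R, and each library left out in turn.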

Additional observations from a re-analysis of the deposited data

How the results depend on the processing

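Of the 7 caveolae genes, 0 were called in each of the 6 comparisons, and this held under all alternatives but those named here. With the adjusted p alone, 3 were called between HFD and ND, 4 between CLE and HFD and 2 between LU and HFD. Without the libraries with the letter R, 1 was called between HFD and ND and 1 between LU and ND. The number of the 7 with an adjusted p under 0.05 between HFD and ND, 3 in the report, was 1 with the letter R as a covariate, 1 without the R libraries and 1 to 4 without 1 library. Between CLE and HFD, 4 in the report, it was 2 with the transcript of the highest mean and 2 to 5 without 1 library. Between LU and HFD, 2 in the report, it was 1 with median ratios, with the transcript of the highest mean or with unaltered Ensembl transcripts alone, and 1 to 3 without 1 library. Between LU and ND it was 1 without the R libraries. No member that differed changed direction under any alternative. Further settings changed which genes passed. Between HFD and ND, Ehd2 did not pass with quantile normalization, the transcript of the highest mean or unaltered transcripts alone. Cavin2 did not pass there in a fit of these groups alone. Between CLE and HFD, Cavin1 did not pass with quantile normalization, and Pacsin2 not in a fit of these groups alone. Cav2 passed there with equal totals. Between LU and HFD, Cav1 passed in place of Ehd2 with quantile normalization. Cavin1 passed there in a fit of these groups alone and with a filter on a mean of at least 5 FPKM.

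Over all genes tested, the adjusted p alone gave 6443 genes between HFD and ND (3271 with the fold limit), 4296 between CLE and HFD (2104), 3426 between LU and HFD (1590), 662 between CLE and ND (373) and 1633 between LU and ND (841). Between CLE and ND the count was 227 with no filter, 207 with the highest transcript, 224 with unaltered transcripts, 0 in a fit of these groups alone (fewer libraries), 183 without the R libraries, and 124 to 498 without 1 library (124 without ND mouse 2). Between CLE and LU the 1 call went to 0 under most alternatives, and was 0 to 1 without 1 library.

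ND, CLE and LU share some mouse numbers, but deviations of same-numbered mice correlated at -0.099 to 0.189, so the numbers were not taken as pairs. HFD shares none. With the mouse number as a block in a fit of ND, CLE and LU, 0 members were called or differed, and 2 genes were called between CLE and ND, 409 between LU and ND and 0 between CLE and LU. The depth behind the FPKM is unknown, so no limit on low values can be given.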

Other observations

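The transcripts behind the gene values differed in number between the members. Cav1 was the sum of 14 rows, of which the Ensembl transcript ENSMUST00000007799 held 69.6% on average in ND, 68.4% in HFD, 68.9% in CLE and 69.3% in LU. The next largest Cav1 row, ENSMUST00000133065, is typed in GENCODE as a processed transcript and not as protein-coding. It held 12.4% to 13.3% in the ND mice and 11.8% to 14.2% in the HFD mice, which overlapped. Its share was 10.4% to 15.5% in CLE and 10.4% to 13.2% in LU. The transcript ENSMUST00000115456 held 8.1% to 11.3% in the ND mice and 12.0% to 12.4% in the HFD mice, which did not overlap. In CLE it held 9.3% to 13.6% and in LU 9.6% to 12.8%. Ehd2 was split between its Ensembl transcript, with 46.6% to 54.2% of the gene in every mouse, and an assembled variant of it, with 40.9% to 49.9%. Cav2, Cavin1, Cavin2 and Cavin3 came at least 98.0% from 1 transcript in every mouse. No test was made of these shares, and Cufflinks divides reads between overlapping transcripts by a model, so their error is not known.

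An assembled row that overlaps Cavin3 without matching its transcript was left out of the gene value. It had 32.5 to 58.0 FPKM in ND, 61.7 to 72.5 in HFD, 51.8 to 67.7 in CLE and 63.2 to 78.2 in LU. All HFD mice and all LU mice were above the ND mice in that row. With the row added, an alternative chosen after seeing the data, the test of Cavin3 passed in none of the 6 comparisons.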
